A study of Caenorhabditis elegans with 4 samples.

Results

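The regions described here are the sites of NHR-23 on chromosome II of Caenorhabditis elegans, taken from the authors' combined peak list of a chromatin immunoprecipitation with sequencing (ChIP-seq) experiment in L3 larvae. They were chosen by chromosome alone. Chromosome II held 1038 rows of that list, which came to 1031 distinct regions once rows repeating the same start and end were dropped. These were 16.8% of the 6142 distinct sites on the 6 nuclear chromosomes (exact binomial 95% interval 15.9 to 17.7, counting error only). Sites were ordered by the running peak number of the combined list, in which a low number was read as a strong site.

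NHR-23 is a nuclear hormone receptor, a DNA-binding transcription factor related to DHR3 of Drosophila and to the mammalian ROR receptors. It is required for moulting, the shedding and rebuilding of the cuticle at the end of each larval stage, and acts in the epidermis. On the autosomes of C. elegans the middle of each chromosome recombines rarely, and the arms on either side recombine more often and are richer in repeats. The chromosomes have no single centromere, so "left" and "right" refer only to low and high coordinates.

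The worms were hermaphrodites of strain OP43, grown at 20 °C and fixed with 2% formaldehyde at L3. All of them carried the unc-119(ed3) mutation and the transgene wgIs43, which was introduced by bombardment and carries nhr-23 tagged with TY1, EGFP and FLAG together with unc-119. Binding was therefore read from a tagged transgene in whole larvae, with a GFP antibody, and cannot be assigned to a tissue. The series has 4 samples, 2 ChIP and 2 Input (10% of the lysate kept back), and the peak lists of the ChIP replicates were used here beside the combined list. The labels do not say whether the replicates were separate cultures, so their differences may be technical. Read depth is unknown, and Input was not analysed here. All positions are in WormBase build WS220. No genome or annotation of that build was used here, so no gene names or sequences are given for the sites.

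The strongest site of the whole combined list (number 1) lay on chromosome II, from 10563360 to 10563672. It carried number 2 in replicate 1 and number 2 in replicate 2, and the centres of these peaks were 0.5 bp apart. On its left the nearest site was 3675 bp away, at the end of a stretch of 13 closely spaced sites. On its right the next site was 35666 bp away. The strongest site thus stood at the edge of a cluster rather than inside it.

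Of the next 9 sites in strength, 8 lay between 4851683 and 10552235, and none lay to the right of the first site. The second lay from 8561240 to 8561538 (combined number 11, replicate numbers 16 and 10) and the third from 8185015 to 8185293 (35, with 44 and 35). The fourth, a wide region of 595 bp from 5844613 to 5845207, had number 39 (38 and 50). Each of these was among the first 5 of chromosome II in both replicates.

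The fifth site, from 1320481 to 1320759, had number 48 (45 in replicate 1 and 85 in replicate 2). It was the only one of the first 10 in the left 4 Mb of the chromosome, and its nearest neighbour was 23131 bp away. The sixth lay from 9112755 to 9113193 and had number 55 (90 and 31), which made it the eleventh of the chromosome in replicate 1 and the third in replicate 2. The seventh, from 4851683 to 4851964, had number 63 (73 and 68).

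The eighth site, from 10551779 to 10552235 (number 64, with 74 and 69), was the strongest member of the stretch beside the first site. The ninth lay from 5055227 to 5055487 (70, with 87 and 100). The tenth, from 5543389 to 5543934, had number 75 (123 and 86). At these 10 sites the centres of the replicate peaks were at most 18 bp apart. All 10 were within the first 17 peaks of chromosome II in each replicate.

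Chromosome II held 1 of the first 10 sites of the combined order, 12 of the first 100 and 152 of the 996 distinct sites with numbers up to 1000 (15.3%, 13.1 to 17.6). When the order was cut into 4 equal parts, its share was 15.6% (13.8 to 17.5) in the strongest, then 17.3%, 17.1% and 17.1% (15.3 to 19.1) in the weakest. The share was thus lowest in the strongest part, and it was also below that of the weakest with either replicate left out (-1.11 and -3.32 percentage points). The intervals overlap, but overlap is not a test of the difference. None was made, so no excess or lack of strong sites is claimed. The median combined number on chromosome II was 3160, against 2961 to 3142 on the other chromosomes.

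**Figure D1:**
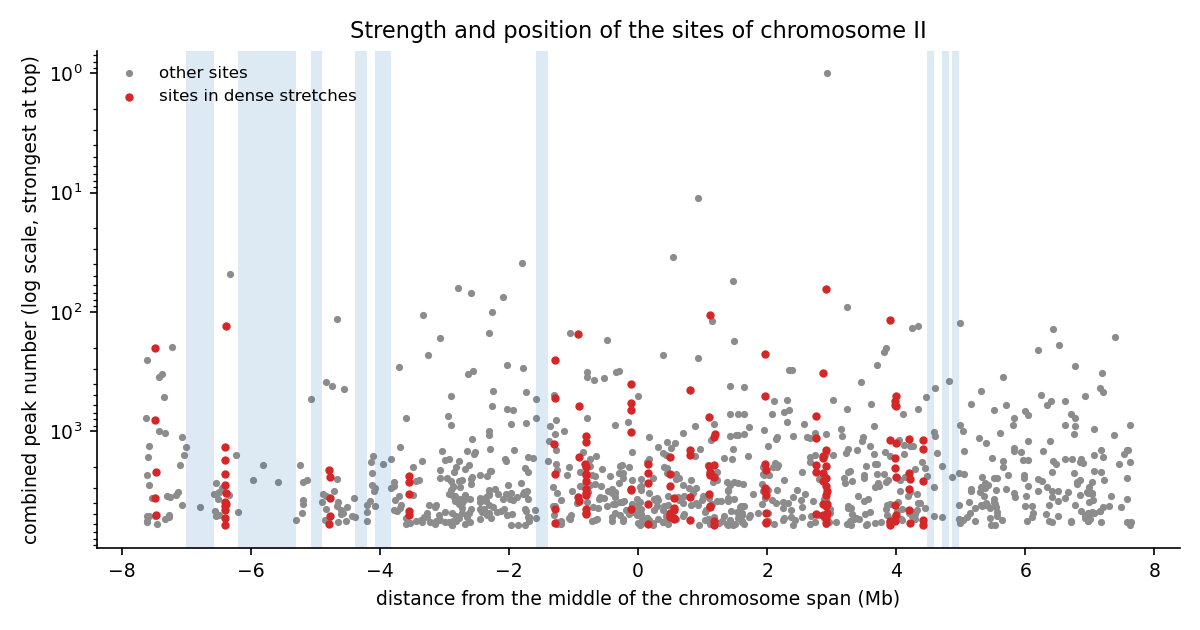
Every distinct site of chromosome II by position (distance from the middle of the span, in Mb, negative to the left) and combined peak number (log scale, strongest at the top). Red points are members of dense stretches and blue bands are the 14 distances over 100 kb between neighbouring sites, 10 of them in the left part.

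Site density changed sharply along the chromosome. The span ran from position 1 to 15274456, the end of the last peak in any of the 3 lists, and held 67.5 sites per Mb. The other chromosomes ranged from 46.3 per Mb (V) to 76.2 (III), which put chromosome II in the third place. Peaks are not replicates, so densities and spacings are given as descriptions beside those of the other chromosomes, with no test.

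In 1 Mb bins the 4 leftmost held 37, 27, 28 and 33 sites. The fifth bin, from 4000001 to 5000000, held 78. From there to 12 Mb no bin fell below 78, and the fullest, from 8000001 to 9000000, held 101. The drop at the right was as abrupt, from 94 sites in the bin ending at 12 Mb to 47 in the next. Chromosome IV had a similar drop between the same bins, from 87 to 44. On chromosome II counts then went up again towards the right end, to 60 and 75, and the incomplete last bin held 14. Over the 15 complete bins the median was 78 sites (67.8 ± 26.6, mean and SD over bins), against a median of 60 over 82 complete bins elsewhere (60.3 ± 23.5).

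The bin pattern was present in each replicate. Among the best 6142 nuclear regions of each replicate, the 4 leftmost bins held 23 to 40 regions in replicate 1 and 26 to 36 in replicate 2. The fifth bin held 79 and 70. The fullest bin was the one starting at 8000001 in replicate 1, with 121, and the one starting at 9000001 in replicate 2, with 104.

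**Figure D2:**
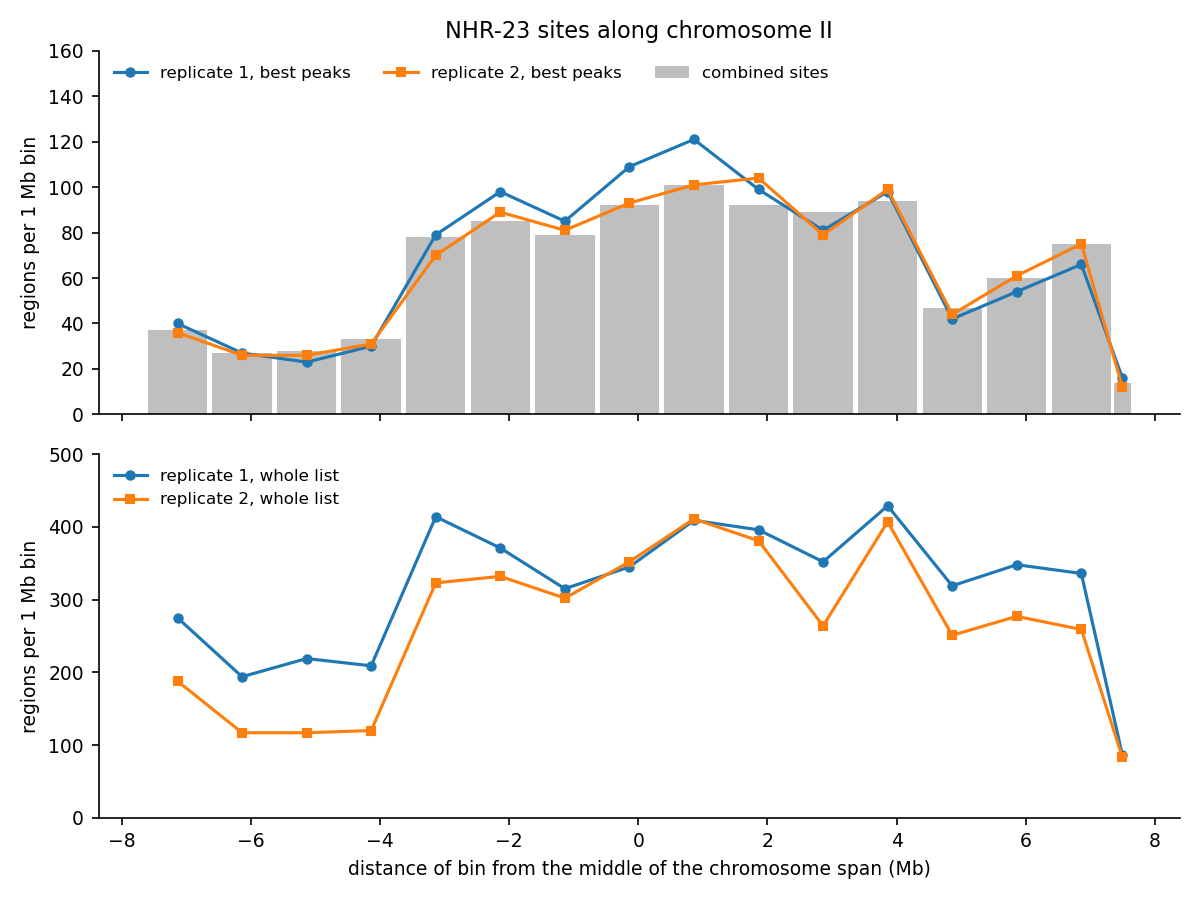
Regions in 1 Mb bins of chromosome II against the distance of the bin from the middle of the span (Mb); the last bin is incomplete. Upper panel, combined sites (grey bars) and the best 6142 nuclear regions of each replicate (lines). Lower panel, all regions of each replicate, where the ratio of replicate 1 to replicate 2 is highest in the left bins.

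Divided into 3 equal parts, the chromosome held 214 sites on the left (42.0 per Mb), 450 in the centre (88.4 per Mb, from 5091486 to 10182970) and 367 on the right (72.1 per Mb). The central part was 1.55 times as dense as the outer parts together. This ratio lay within the range of the other chromosomes, from 1.02 on X to 1.92 on V. The outer parts of chromosome II differed from each other: the right held 1.71 times as many sites as the left. On the other chromosomes the same ratio ran from 0.630 (V) to 1.20 (III). On V and IV (0.712) the outer parts were also uneven, with the right part holding fewer sites. The left part of chromosome II was the least dense left part of the 6 chromosomes, although that of V (43.5 per Mb) was close to it. The right parts of IV (36.9 per Mb) and V (27.4 per Mb) were sparser still.

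**Figure D3:**
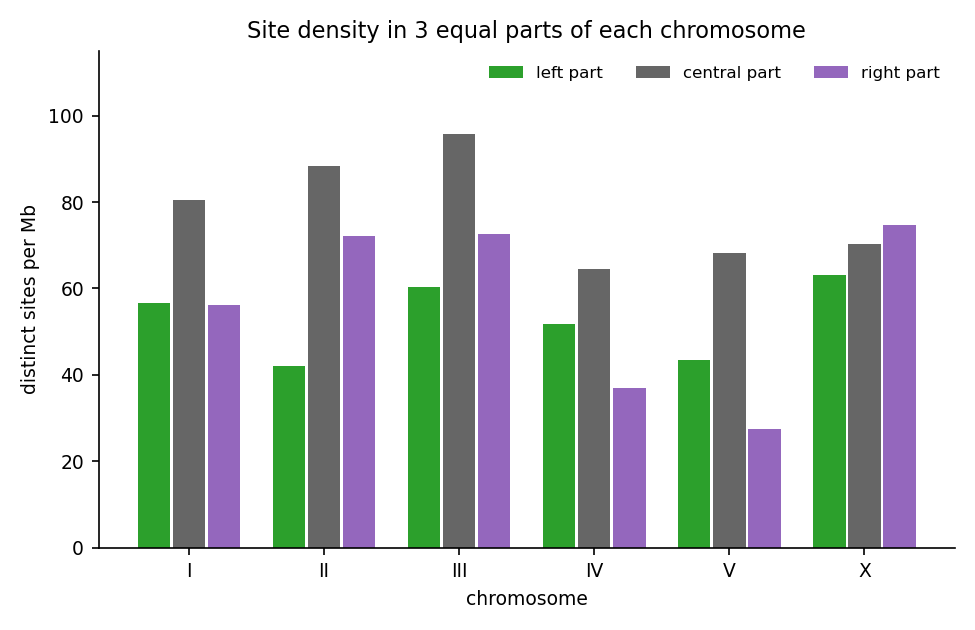
Distinct combined sites per Mb in the left, central and right of 3 equal parts of each chromosome. On chromosome II the left bar (42.0) is far below the right bar (72.1), and the central bar (88.4) is second to that of chromosome III (95.8).

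The median combined number was 3462 in the left part, 3241 in the centre and 2696 on the right, lowest on the right. Sites with numbers up to 1000 made up 12.6% of the left sites (27), 14.9% of the central (67) and 15.8% of the right (58). Medians were also taken in the left 4 Mb, from 4 to 12 Mb and beyond, sections set after the bin counts were seen. They were 3418, 3175 and 2804.5 on chromosome II. They fell likewise on I (3404.5, 3067 and 2838) and III (3338, 3078.5 and 2889). On X the last section was also lowest (2809), but on IV and V it was not. The bin from 6000001 to 7000000 had the lowest median number of the complete bins (2365), and that from 3000001 to 4000000 the highest (3774). The central share of the chromosome II sites was 42.5% in the strongest of the 4 parts of the order (36.2 to 49.0) and 42.6% in the weakest (36.5 to 48.8).

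The whole replicate lists showed where weak peaks were called. Replicate 1 listed 30000 rows over all chromosomes and replicate 2 listed 25173. On chromosome II these came to 5017 and 4184 distinct regions, a ratio of 1.199. In the left part replicate 1 had 1348 and replicate 2 had 899, a ratio of 1.499, against 1.04 in the centre (1850 and 1780) and 1.21 on the right. The left ratio of the other chromosomes ran from 1.23 (X) to 1.37 (V), and the right ratio of V reached 1.602. Relative to the ratio of the whole chromosome, the excess of replicate 1 was larger on the left and smaller in the centre. By 1 Mb bins its excess was largest from 2000001 to 3000000, with 219 regions against 117.

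Many of these left peaks were not shared. Of the replicate 1 regions on chromosome II, 56.4% overlapped a replicate 2 region by at least 1 bp, where the figure over all nuclear regions was 55.7%. By part, the value was 45.5% on the left, 65.9% in the centre and 54.9% on the right. The outer parts were also less shared than the centre on each other chromosome. There the left ran from 48.5% (I) to 57.5% (X) and the centre from 61.9% (IV) to 66.1% (V). The right ran from 40.5% (V) to 57.8% (X). In replicate 2, 65.9% overlapped replicate 1 (65.3% over all nuclear regions), and the parts were alike, at 65.1%, 67.2% and 64.8%. A combined site was overlapped by 23.7% of the replicate 1 regions and 27.1% of those of replicate 2 (23.6% and 27.3% over all nuclear regions). In the left part the values were 18.4% and 26.4%. For replicate 1 the left parts of the other chromosomes ran from 17.7% (I) to 25.8% (X), and the right part of V had 16.1%.

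The median distance from one centre to the next was 5349 bp, with quartiles at 1580 and 18012 bp. The medians of the other chromosomes ran from 5221 bp (X) to 6714 bp (I). By part, the median was 7365 bp on the left, 4252 bp in the centre and 6062 bp on the right. In the left 4 Mb, a section set after the bin counts were seen, 125 sites lay a median of 14150 bp apart. The left 4 Mb of V was similar, with 132 sites a median of 13283 bp apart.

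A neighbour within 1 kb was found for 250 sites (24.2%, 21.7 to 27.0), where 21.7% of all combined sites had one. The share was 21.2% (20.0 to 22.3) on the other chromosomes pooled, with overlapping intervals, and at most 22.7% on any of them (X). Within chromosome II it was 16.4% on the left, 27.8% in the centre and 24.5% on the right. Part of it came from regions that overlapped: 48 sites formed 24 overlapping pairs, which left 1007 separate regions covering 318 kb, or 2.08% of the span. At the other extreme, 76 sites (7.37%, 5.85 to 9.14) had no neighbour within 20 kb, against 7.67% of all combined sites. Their median number was 3035, and 9.21% of them had numbers up to 1000.

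Dense stretches were defined as runs of at least 5 sites in which each centre was within 3 kb of the next. Chromosome II had 24, with 156 sites (15.1%, 13.0 to 17.5), where 12.8% of all combined sites were in such runs. The share was 12.3% (11.4 to 13.2) on the other chromosomes pooled, where it ran from 9.74% (IV) to 14.3% (X). The stretches of chromosome II covered 181 kb in all, 1.18% of the span, and 13 of the 24 had 5 sites. The centre held 12 of them, the right part 8 and the left part 4.

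Sites in the stretches were of middling strength. Their median number was 2669, against 3207 for the other sites of the chromosome, and the corresponding values elsewhere were 2950 and 3086. Numbers up to 1000 made up 14.7% of the sites both inside and outside stretches. Of the 24 stretches, 14 held a site with such a number and 1 held a site with a number up to 100. All 156 sites were found in both replicates, as were 97.7% of the sites outside.

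The largest stretches had 13 sites each. One of them ran from 10546019 to 10560031, a length of 14.0 kb. Its strongest site was the eighth of the chromosome (number 64), with replicate numbers 74 and 69. The second strongest, from 10549259 to 10549563, had number 1433 (881 and 2622), and the weakest had number 5942. A single strong site was therefore flanked by much weaker ones, at distances up to 5799 bp on the left and 7835 bp on the right. The whole lists had 20 regions of replicate 1 and 21 of replicate 2 inside it, of which 13 and 9 were among the best 6142. This stretch fell within the fullest 20 kb window, from 10542139 to 10562138, with 17 sites. The fullest windows of the other chromosomes held 11 to 16 (X). The 17 include sites that overlap each other, and with overlapping sites merged the fullest window of chromosome II held 14. The merged count is not given here for the other chromosomes.

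The other stretch of 13 sites, from 6821050 to 6837533, had no strong member. Its best site, from 6822392 to 6822560, had number 1105, with 2990 in replicate 1 and 714 in replicate 2. The next, from 6827449 to 6827626, had number 1246 (1424 and 969). The median over the stretch was 2626, lower than in the first stretch (3446). Its numbers ran from 1105 to 5004, a narrower range than the 64 to 5942 of the first stretch. Inside it, 12 regions of replicate 1 and 14 of replicate 2 were among the best 6142.

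The third stretch, from 1233030 to 1248882, was the largest of the sparse left part, with 12 sites in 15.9 kb. Its strongest site, from 1246832 to 1247309, had number 131 (127 and 161) and lay next to the right edge, with 10 of the others on its left. The next strongest, from 1237978 to 1238298, had number 1365 and was far apart in the replicates (571 and 3382). The bin from 1000001 to 2000000 held 27 sites, so this stretch made up 12 of them.

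The fourth, from 8740335 to 8751453, had 9 sites. Its strongest was the last on the right, from 8750881 to 8751453, with number 107 (260 and 58). A region of 633 bp from 8741881 to 8742513 (number 769, with 1123 and 586) was near its left end. The fifth, from 10496632 to 10506126, had 7 sites, as did another from 7528234 to 7534659, which was placed after it for its weaker best site (406). The best site of the fifth lay from 10502555 to 10502959, with number 328 (450 and 231). This stretch ended 39.9 kb to the left of the first stretch, so that these stretches and the strongest site of the genome fell in a common section of the bin starting at 10000001.

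**Figure D4:**
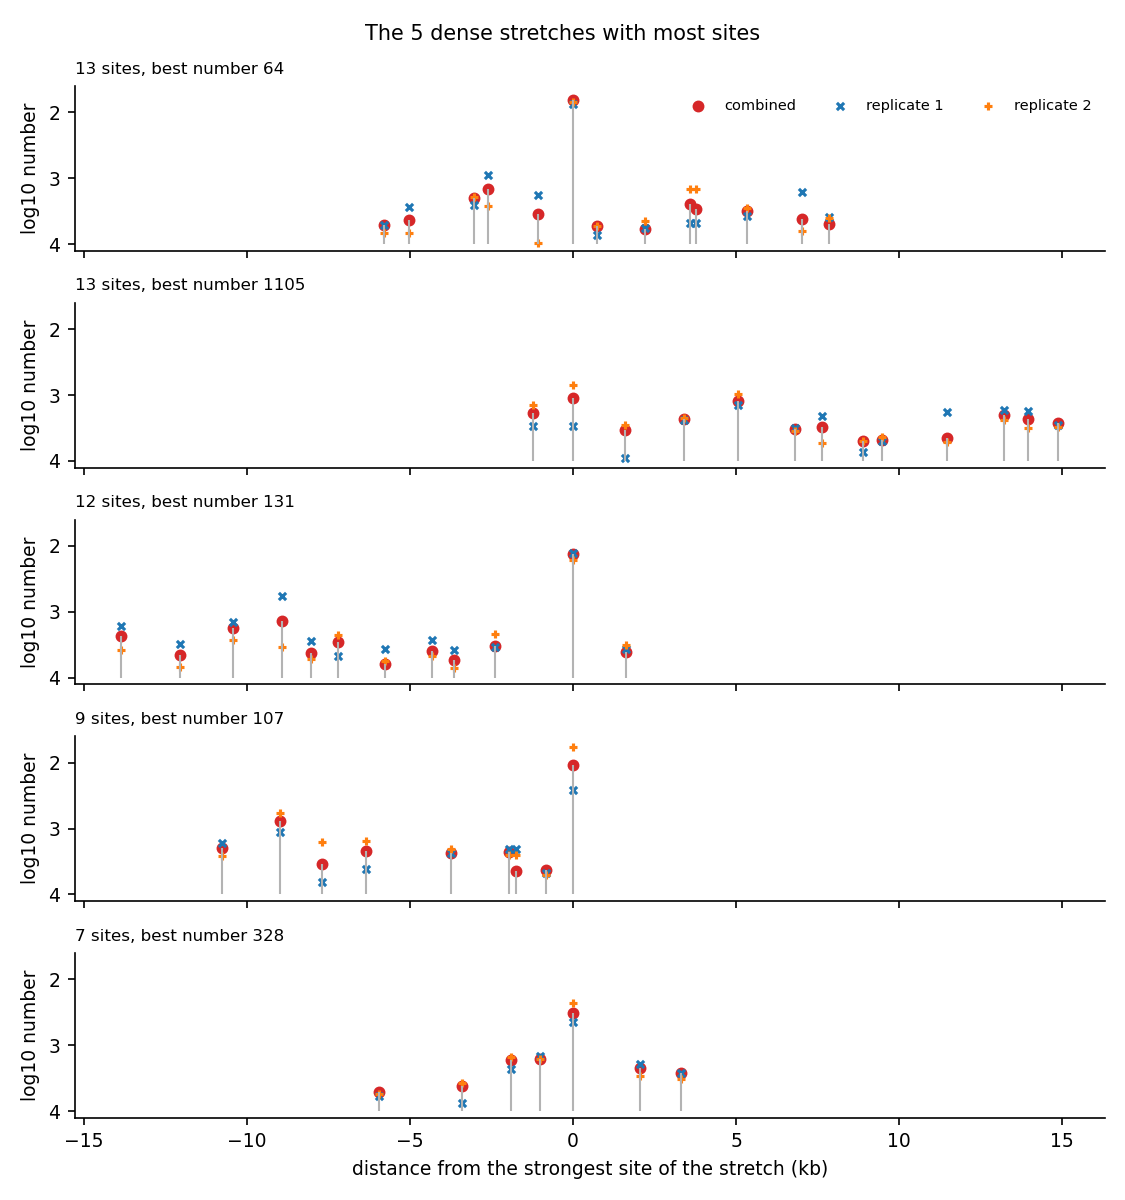
The 5 dense stretches with most sites, from the top 13, 13, 12, 9 and 7 sites (another stretch of 7 with a weaker best site is not drawn): log10 peak number (axis inverted, strongest at the top) in the combined list and in each replicate, against the distance from the strongest site of the stretch (kb). The panels with best numbers 64, 131 and 107 each have 1 site far above the rest, and the panel with best number 1105 has none.

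Distances over 100 kb between neighbouring sites numbered 14 and added up to 2476 kb, 16.2% of the span. On the other chromosomes such gaps made up from 6.37% (III) to 33.2% (V) of the span. The left part held 10 of the 14, the centre 1 and the right 3. The gaps were not empty in the replicate lists, which had 344 regions of replicate 1 (139 per Mb) and 109 of replicate 2 (44.0 per Mb) inside them. Of these, 20.1% and 59.6% overlapped the other replicate, against 55.7% and 65.3% over all nuclear regions. A gap by definition holds no combined site, and 98.5% of all combined sites were found in both replicates. Sharing inside gaps is therefore bound up with how they were defined. The best numbers among the replicate regions inside gaps were 3443 and 4128, both from the gap in the central part.

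The longest gaps lay next to each other. From the site ending at 2059394 to the one starting at 2342028 the centres were 283 kb apart, and from the site ending at 1820270 to the one starting at 2059015 they were 239 kb apart. The site between them, from 2059015 to 2059394, was the most isolated of the chromosome. It had combined number 2680 and number 2351 in replicate 1, but no replicate 2 region overlapped it.

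The third gap, of 226 kb, lay between the sites ending at 1437953 and starting at 1663664. The next gaps, of 223 and 220 kb, flanked a site from 848538 to 848917 with number 4315. That site had numbers 8625 in replicate 1 and 2756 in replicate 2. In the longest gap the whole lists had 54 regions of replicate 1 and 17 of replicate 2, the best with numbers 6322 and 7245. All 5 of the longest gaps were in the left 2.34 Mb of the chromosome.

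The single gap of the central part, from the site ending at 6061767 to the one starting at 6248596, was 187 kb long. It had 18 regions of replicate 1 and 20 of replicate 2, and so lacked the excess of replicate 1 seen in the left gaps. The site on its left had number 784 and the one on its right number 1783.

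Nearly all chromosome II sites had a counterpart in each replicate. The combined list was made from the same replicates, in a way that is not stated, so the lists are not independent of each other. Both replicates overlapped 1011 of the 1031 sites (98.1%, 97.0 to 98.8), and 98.5% of all combined sites were found in both. Replicate 1 alone overlapped 8 and replicate 2 alone 12. These 20 sites were weak, with a median number of 5086. The strongest lay from 7676255 to 7676521 (number 2503, and number 1389 in replicate 2), followed by the isolated site from 2059015 to 2059394.

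At the sites found in both, the median number was 3101 in replicate 1 and 3118 in replicate 2. The interquartile range was 1617 to 5173 in the former and 1546 to 4950 in the latter. For 690 sites (68.2%) the numbers were within a factor of 2 of each other. The number was lower in replicate 1 at 468 sites and in replicate 2 at 542. As a description over 1011 sites of the same libraries, Spearman's rho between the replicate numbers was 0.606, where the other chromosomes had 0.603 (V) to 0.657 (I). The peak calls had passed through a procedure that compares ranks between replicates, and how far that selection bears on rho was not tested. In addition, 52 sites shared a replicate region with another site, and without them rho was 0.617.

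Sites with low combined numbers also had low numbers in both replicates. All 12 chromosome II sites with numbers up to 100 were among the first 200 of both replicates, and 149 of the 152 with numbers up to 1000 were among the first 2000. The combined number followed those of the replicates (Spearman's rho 0.825 for replicate 1 and 0.889 for replicate 2). These counts are therefore a description and not independent agreement. Between the replicates the centres differed by 31 bp at the median, with quartiles at 12 and 65.5 bp, and by 30 bp elsewhere. Over the 4 equal parts of the order, from strongest to weakest, the median difference was 15.3, 26, 38 and 59 bp. The replicate centres were thus closest at the strong sites.

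Numbers more than 8 times apart occurred at 11 sites, 9 with the lower number in replicate 2. The replicate 1 list is longer (30000 rows against 25173), and at 3 of these 9 its number was beyond the end of the replicate 2 list. At the others it was within that length. Whether list length bears on the direction was not tested, and the direction is not read as a difference between the replicates. In the stronger 50% of the sites, the widest differences were as follows. The site from 12622189 to 12622405 (combined number 897) had number 5155 in replicate 1 and 272 in replicate 2, a log2 ratio of -4.24. The site from 11501964 to 11502343 (2559) had numbers 19870 and 1160, and that from 8854058 to 8854186 (2223) had 12637 and 957. In each of these the number was far higher in replicate 1 than in replicate 2.

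The fourth, from 11347899 to 11348278 (2711), had numbers 13759 and 1376. The fifth was the reverse, from 12262588 to 12262750 (1534), with 600 in replicate 1 and 4897 in replicate 2. The widest difference over all sites, picked out after it was seen, was at a weak site from 24793 to 25043 (5149), with numbers 152 and 9788. Its replicate 1 region was also the counterpart of the overlapping site from 24401 to 24876 (number 255, and 441 in replicate 2), so the low number belonged to the neighbour as well.

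**Figure D5:**
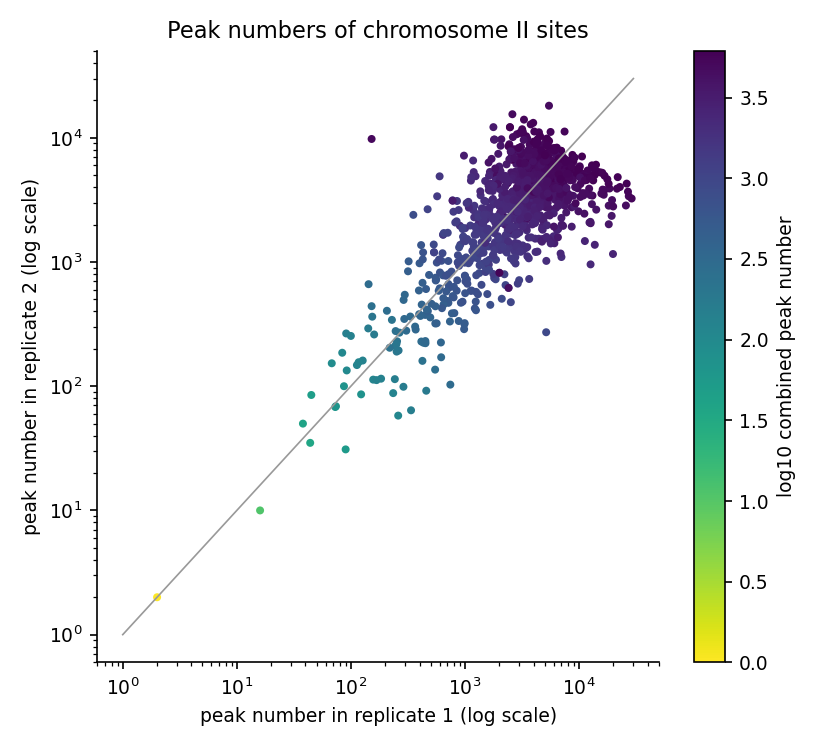
Peak number in replicate 1 (x) and replicate 2 (y), both on log scales, of the 1011 chromosome II sites found in both; colour is the log10 combined number and the grey line marks equal numbers. Points lie close to the line among the strongest sites and spread out among the weak ones.

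Strong replicate regions with no counterpart were few. Of the 150 chromosome II regions of replicate 1 with numbers up to 1000, 1 had none in replicate 2, from 12944554 to 12944746 (number 385), and it overlapped no combined site either. A combined site began just to its right, from 12944800 to 12945071 (number 461, with 425 and 680). Its lack of a counterpart therefore rests on the rule of at least 1 bp of overlap. The next were from 7756868 to 7757251 (1052) and from 7183896 to 7184279 (1786). In replicate 2 all 157 regions with numbers up to 1000 were shared. Its strongest regions without a counterpart lay from 7301746 to 7301877 (1357), from 7676326 to 7676462 (1389) and from 7273459 to 7273822 (2035), and the last 2 of these overlapped a combined site.

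Sharing fell with peak number as it did elsewhere. Between numbers 4001 and 6000, 91.9% of the chromosome II regions of replicate 1 were shared (89.0% on the other chromosomes), and 60.1% overlapped a combined site (61.4%). Between 20001 and 30000 the shared portion was 32.4% (32.2%). In replicate 2 the values for 4001 to 6000 were 85.9% shared (87.7%) and 68.0% in a combined site (69.1%).

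The commonest width was 380 bp (592 sites, 57.4%), with 405 sites narrower and 34 wider, from 95 to 875 bp. In the strongest of the 4 parts of the order 1 of 240 sites had that width, and in the weakest 254 of 263 (96.6%). The strongest site of 380 bp had number 1382. The narrower sites held 128 of the 152 sites with numbers up to 1000, and their median number was 1482, against 4317 for the sites of 380 bp. Of the 34 wider sites, 24 had numbers up to 1000, and their median was 481. From the strongest to the weakest of the 4 parts of the order the median width was 234.5, 192, 380 and 380 bp. Most strong sites were thus narrower than the weak ones, and a few were wider. The 7 regions listed under 2 numbers were all among the wide ones (546 to 633 bp), with the lower number from 39 to 769 and the higher from 179 to 5485. With 1 width at most weak sites, width was taken as a property of the list and not of the bound stretch of DNA.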

How the data were processed

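ChIP-seq peak lists of NHR-23::GFP were analysed for 2 ChIP replicates, with 1 combined list. Peaks were called by SPP followed by the irreproducible discovery rate procedure, per the second column of the deposited files, on build WS220, per the file headers. Versions, settings, read depth and the merging step are not given here. The deposited score of each peak has an unstated scale and 1 value throughout the combined list, so the authors' peak number gave the order. Mitochondrial regions were left out of the nuclear counts.

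Regions with identical start and end were counted once, under their lowest number. A site was found in a replicate if at least 1 bp overlapped; its replicate number is the lowest among overlapping regions. Distances are between centres. Shares have exact Clopper-Pearson 95% intervals, which cover counting error only, since sites cluster. No resampling over regions was made. Named regions were the 10 strongest sites, 5 fullest stretches, 5 longest gaps, 5 widest replicate differences in the stronger 50%, extreme bins, and up to 3 unmatched strong regions per replicate; others are named as picked out later or from a count of few. The members and rules were chosen with earlier results of these data known. Code was tested on simulated positions. The software was matplotlib 3.10.9, scipy 1.17.1, pandas 2.3.3, numpy 2.4.6 and Python 3.11.15. Alternatives are given at the end.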

Additional observations from a re-analysis of the deposited data

How the results depend on the processing

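To leave out a replicate, the best 6142 nuclear regions of the other were taken. Density then ran from 67.2 to 69.9 sites per Mb, the share with a neighbour within 1 kb from 24.1% to 28.9%, median spacing from 3927 to 5355 bp, the central to outer ratio from 1.67 to 1.83, and the difference in chromosome II share between the strongest and the weakest of 4 parts of the order from -3.32 to -1.11 percentage points (-1.50 as reported). Dense stretches numbered 24 to 35, the fullest 20 kb window held 14 to 18 and gaps over 100 kb numbered 14 to 16. In the stronger 50% of the combined list density was 33.1 per Mb, 8.91% of sites had a neighbour within 1 kb, spacing was 13056 bp, stretches numbered 3, the fullest window held 8 sites and gaps numbered 34, as fewer sites require. The central ratio was 1.42, 99.6% were found in both replicates and rho was 0.564. With reciprocal 50% overlap 71.1% were found in both (rho 0.513), and with centres within 100 bp 89.4% (rho 0.637). Merging overlapping sites left 20.7% with a neighbour within 1 kb and 14 sites in the fullest 20 kb window. The middle 50% of the span against the rest gave a ratio of 1.76. Joining distances of 2 and 5 kb gave 11 and 37 stretches, windows of 10 and 50 kb held 10 and 26 sites, and 58 gaps exceeded 50 kb. Of 44 alternative values, 18 stayed within the limit set for their kind. The limit was the binomial interval for shares, a fixed factor for counts and exact equality for rho. For the rest it was the SD of the 2 values obtained with a replicate left out. A change of sign was looked for only in the difference in chromosome II share, where none occurred. For values outside their limit and not fixed by construction, the cause was not tested. Since depth is unknown, a site missing from a list is not shown to be unbound. No paired analysis was possible because no result comes from a test between groups.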
